A study of Mus musculus with 8 samples.

Results

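The 41 interferon response genes described here are transcripts that cells make after interferons bind their receptors, and they were taken by gene symbol from the 21848 genes of the matrices, all 41 of them being present. They were measured by single-cell RNA sequencing of the injury site of the right sensorimotor cortex, with the spared tissue around it and without meninges, 6 days after photothrombotic ischemia (PT), a stroke made by light on a dye in the blood. Of 8 adult mice, 4 received saline and 4 received 2.4 U ancrod per day from a subcutaneous osmotic minipump placed 2 days before PT. Ancrod is a snake venom enzyme that removes fibrinogen from the blood. The labels give the genotype of all 8 mice as Bl/J6 and their sex as female, whereas the methods of the study name C57BL/6N mice of both sexes, and this was not settled. Each mouse gave 1 library of cells that were not enriched for any type, and replicates 1 to 3 of both groups were injured and sequenced in batch 1 and replicate 4 of both groups in batch 2. No uninjured cortex is among these samples, so the levels below are levels in injured tissue and not a response to injury.

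The libraries held 97861434 to 122758649 UMIs (counted molecules) in saline mice and 126682918 to 142139441 in ancrod mice, empty droplets included, so these totals did not overlap. In the droplets kept as described next the totals overlapped, at 82133510 to 112074810 in saline and 104613806 to 126868368 in ancrod mice. Droplets with at least 2000 UMIs and under 20% mitochondrial UMIs were kept, which gave 46216 droplets, and 44072 of them remained as cells after 2144 likely doublets were removed, 22065 from saline and 22007 from ancrod mice. Of 45940 distinct barcodes, 274 were found in 2 or more libraries, and a pair of libraries shared 3 to 15. Clusters were named from marker genes as 14 classes with enough cells, the largest being microglia-like (16289 cells), endothelial-like (6176), astrocyte-like (4237), infiltrating macrophage-like (3461) and fibroblast-like cells (2302), and 5541 cells (12.6%) stayed unnamed. The ending "-like" is left out from here on. The members and related interferon-induced genes took no part in the clustering.

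Interferons are secreted proteins that warn neighbouring cells of viruses, and injured or inflamed brain tissue is known to make them without infection. Type I interferons such as interferon beta act through the receptor chains Ifnar1 and Ifnar2, and the kinases bound there switch on a complex that holds Stat2 and Irf9 and binds a DNA element called ISRE. Interferon gamma, the type II interferon of T cells and natural killer cells, acts through Ifngr1 and Ifngr2 and leads to binding of another element, GAS. The genes switched on encode transcription factors that extend the response, sensors of viral nucleic acids, and proteins that block viral translation, copying, entry or release, and many of them are also made at a low level without interferon.

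The sequences just before the transcription starts are shown here because they hold the elements through which these genes are known to be read. RefSeq promoters (GRCm38.p6, 250 bases before to 50 after each start) were matched for 31 of the 41 members. The core of the ISRE was searched as TTTC NN TTTC, with N for any base, or, on the other strand, as GAAA NN GAAA, and was present in 20 of 31 member promoters (64.5%) against 943 of all 27025 promoters (3.49%). The GAS letters TTC NNN GAA, which read alike on both strands, were present in 9 of 31 (29.0%) against 8.47% of all promoters. All 6 guanylate-binding and immunity-related GTPases held the ISRE core and 3 of them a GAS, while of the 4 transcription factors 1 held the ISRE core and 1 a GAS. Below are the 160 bases before the start of 7 members that stand for the roles described next, written 5′ to 3′ on the strand of the gene, with bases of the ISRE core or of a GAS in capitals.
Isg15, chr4:156200819-156200978, minus strand: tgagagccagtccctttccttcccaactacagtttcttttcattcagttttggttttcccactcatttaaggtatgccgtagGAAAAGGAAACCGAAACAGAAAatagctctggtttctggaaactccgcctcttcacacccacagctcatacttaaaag
Ifit3, chr19:34583369-34583528, plus strand: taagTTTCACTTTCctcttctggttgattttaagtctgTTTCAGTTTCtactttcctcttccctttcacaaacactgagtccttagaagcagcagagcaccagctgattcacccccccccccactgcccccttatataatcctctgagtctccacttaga
Rsad2, chr12:26456453-26456612, minus strand: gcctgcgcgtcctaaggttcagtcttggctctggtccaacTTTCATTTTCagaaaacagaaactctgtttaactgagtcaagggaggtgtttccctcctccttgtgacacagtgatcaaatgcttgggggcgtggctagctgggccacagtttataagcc
Gbp3, chr3:142559884-142560043, plus strand: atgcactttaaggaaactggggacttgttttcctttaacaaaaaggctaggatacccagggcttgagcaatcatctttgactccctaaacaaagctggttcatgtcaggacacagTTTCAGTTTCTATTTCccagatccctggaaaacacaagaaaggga
Igtp, chr11:58199396-58199555, plus strand: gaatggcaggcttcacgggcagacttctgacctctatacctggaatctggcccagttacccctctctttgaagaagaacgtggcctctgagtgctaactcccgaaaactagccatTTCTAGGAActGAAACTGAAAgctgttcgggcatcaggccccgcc
Irf1, chr11:53769854-53770013, plus strand: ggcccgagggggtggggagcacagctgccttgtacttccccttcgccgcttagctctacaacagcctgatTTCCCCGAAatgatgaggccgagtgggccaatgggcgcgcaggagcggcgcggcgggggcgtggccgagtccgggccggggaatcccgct
Irf7, chr7:141266425-141266584, minus strand: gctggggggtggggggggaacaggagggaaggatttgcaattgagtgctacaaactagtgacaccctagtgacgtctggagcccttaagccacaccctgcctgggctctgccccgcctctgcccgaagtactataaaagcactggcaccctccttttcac
Isg15 held 3 overlapping matches to the ISRE core 78 to 66 bases before its start, Ifit3 held 2, at 156 and 122 bases, and Rsad2 held 1, at 120 bases. Gbp3 held 2 overlapping matches at 45 and 39 bases. Igtp held an ISRE core at 34 bases and a GAS at 45 bases, Irf1 held a GAS at 90 bases and no ISRE core, and Irf7 held neither in these bases. A match is a description of letters, and no match says only that the letters are not in this window.

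Summed over the 41 members, the level was highest among the 14 classes in monocytes, at 5428 ± 1151 CPM (counts per 1000000 UMIs of the class, mean ± SD, n = 8 mice), followed by border-associated macrophages (4781 ± 1042) and endothelial cells (4707 ± 561). T cells (3223 ± 778), pericytes (2989 ± 677), microglia (2974 ± 583), dendritic cells (2861 ± 678), neutrophils (2638 ± 990), fibroblasts (2519 ± 392) and infiltrating macrophages (2322 ± 400) formed the middle of the order. Astrocytes (1894 ± 560), smooth muscle cells (1490 ± 127), natural killer cells (1315 ± 440) and neurons (306 ± 195, n = 7 mice) lay at the lower end. Within the same mice, endothelial cells lay above T cells in 8 of 8, whereas pericytes lay above microglia in 4 of 8 and neutrophils above fibroblasts in 3 of 8, so that these neighbours in the order did not differ beyond their spread. Clusters outside the 14 classes reached higher, with 5847 ± 591 CPM in plasmacytoid dendritic cells (84 cells, n = 4 mice), 5958 ± 792 in an unnamed cluster led by Gkn3 and Vegfc (795 cells, n = 8) and 14976 in an unnamed cluster led by Tmem212 and Ccdc153, of whose 52 cells 48 came from saline 4. The cluster led by Gkn3 and Vegfc scored highest for the endothelial markers, with 7 of them detected. It stayed unnamed because a neuronal marker was among its leading genes, so the endothelial level does not include it. Its part in the order of classes was not tested. Because the classes are clusters of the same cells, no test was made of these levels. Droplets with at most 100 UMIs, which hold free RNA, gave 2235 to 3404 CPM for the sum, and the share of free RNA estimated in the classes was 0 to 4.01%.

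**Figure D1:**
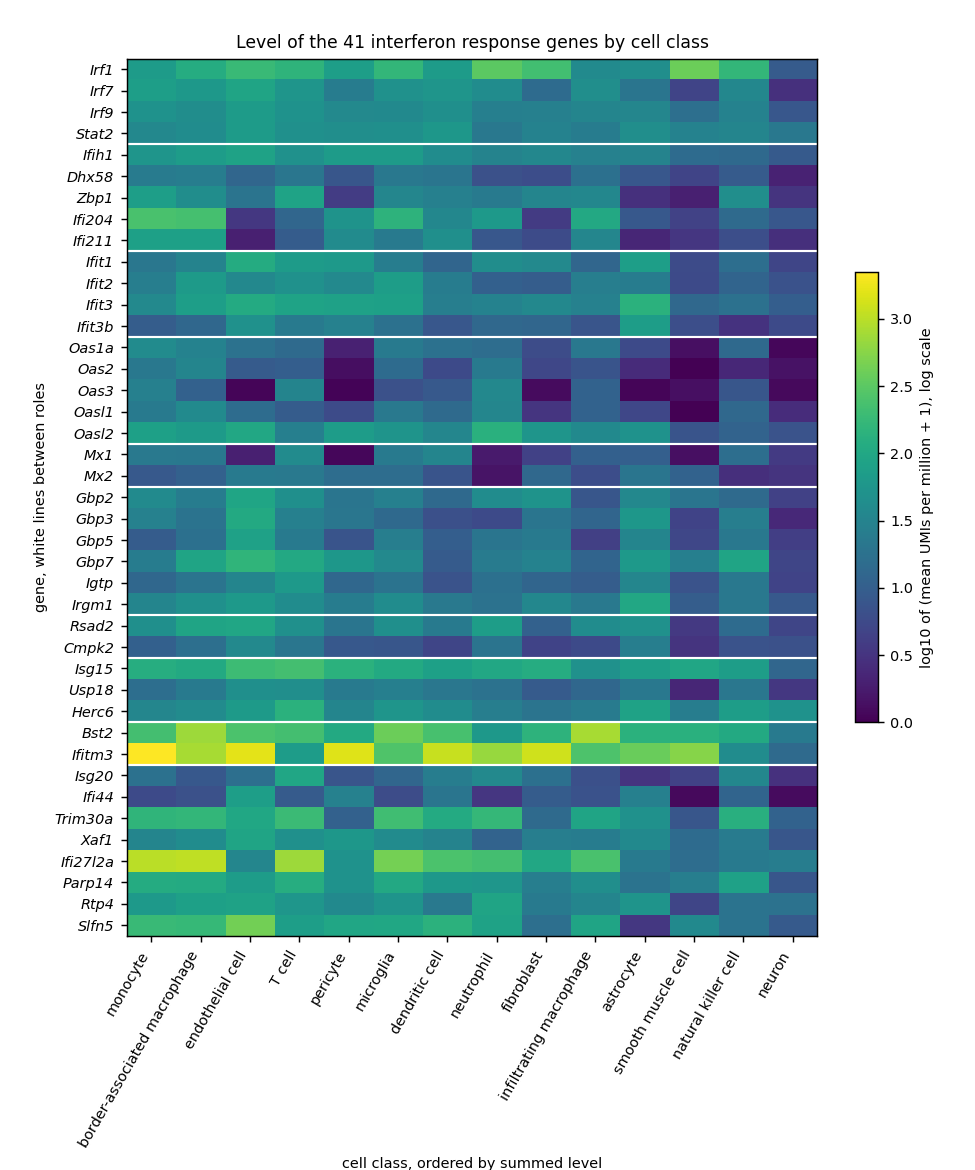
Mean level of each of the 41 genes (rows, grouped by role) in each of the 14 cell classes (columns, ordered by summed level) as log10 of mean CPM plus 1, n = 8 mice, 7 for neurons. The bright rows of Ifitm3, Bst2 and Ifi27l2a run through most myeloid classes, and Slfn5 stands out in endothelial cells.

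The order changed when only the 16 members of the IFIT, OAS and Mx families, viperin and Cmpk2, and the ISG15 system were summed, a choice made after the data were seen. Endothelial cells then came first with 909 ± 199 CPM, T cells second with 846 ± 291 and border-associated macrophages at rank 3 with 666 ± 287, while monocytes moved to rank 7 with 536 ± 328. Astrocytes, low in the sum of all 41, reached 653 ± 234, close to microglia with 590 ± 160, and lay above them in 5 of 8 mice. Neurons stayed last with 112 ± 84.5. Several classes owed much of their sum of all 41 to a few members. Ifitm3, a membrane protein that blocks viral entry, stood at 2230 ± 289 CPM in monocytes and 1604.5 ± 206 in endothelial cells. Bst2, a surface protein that tethers budding viruses, was at 805 ± 112 CPM in infiltrating macrophages. Without Ifitm3, Bst2, Ifi27l2a and Irf1 the mean sum was 1890.5 CPM in monocytes and 976 in infiltrating macrophages. It was 2051 in border-associated macrophages, 2636 in endothelial cells, 780 in fibroblasts and 407 in smooth muscle cells. Free RNA gave 308 to 702 CPM for the 16 members.

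**Figure D2:**
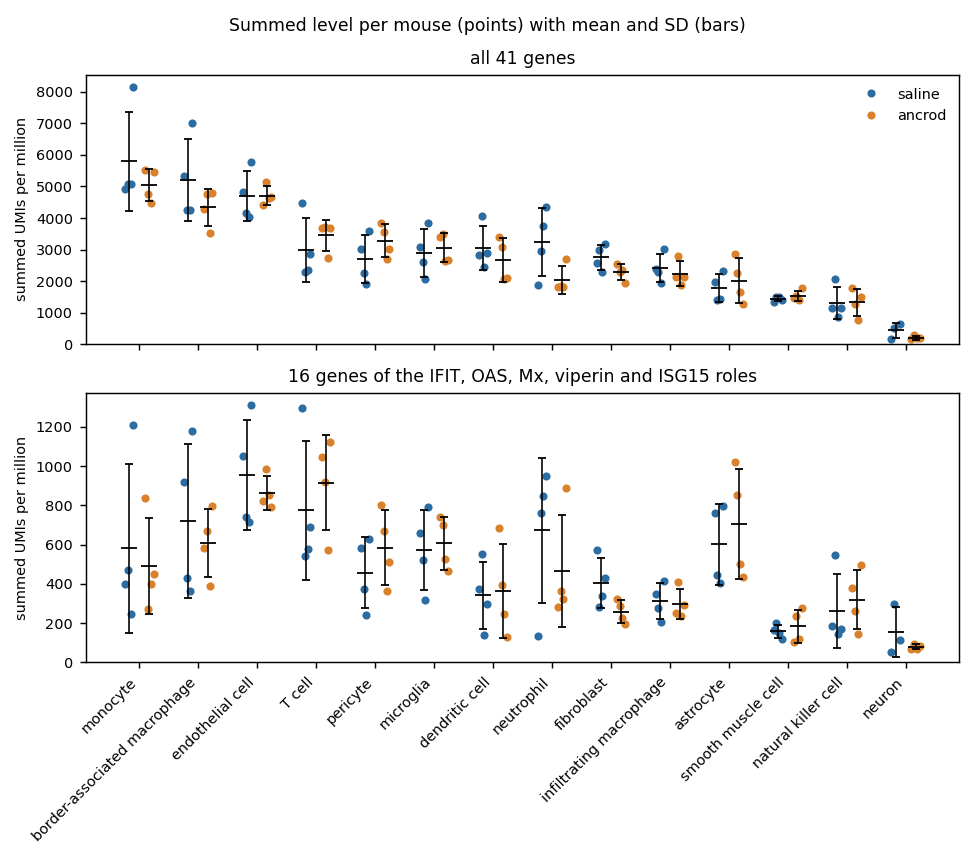
Summed level per mouse of all 41 members (upper panel) and of the 16 members of 5 roles (lower panel) in CPM of the class, with points for the 4 saline and 4 ancrod mice and bars for the mean and SD of each group. Monocytes lead the upper panel and endothelial cells the lower one, and the ranges of saline and ancrod points overlap in every class in both panels.

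Member by member, 16 of the 41 had their highest mean in endothelial cells, 7 in T cells, 5 in border-associated macrophages, 3 each in astrocytes, monocytes and neutrophils, 2 in microglia and 1 each in smooth muscle cells and infiltrating macrophages. Within mice, the class with the highest mean lay above the class next to it in 8 of 8 mice for 11 members, in 7 for 6, in 6 for 7, in 5 for 13, in 4 for Dhx58, Oasl2 and Parp14 and in 3 for Ifi211, so that for many members the leading class did not differ from the next beyond the spread. Among the transcription factors, which pass on or extend the signal, Irf9 (67.2 ± 5.34 CPM, above the next class in 8 of 8 mice), Stat2 (67.6 ± 5.43) and Irf7 (88.9 ± 21.1) were highest in endothelial cells. Irf7, the factor that amplifies type I interferon production, gave 101, 68.3, 63.0 and 120 CPM in endothelial cells of the saline mice and 85.5, 114, 86.8 and 72.6 in those of the ancrod mice. Its values in the 2 groups overlapped, with saline 4 highest and saline 3 lowest. Irf1, which both type I and type II interferons induce, differed from the other factors in having its highest mean in smooth muscle cells, at 390 ± 79.1 CPM, and its lowest in neurons, at 8.09. The nucleic acid sensor Ifih1 was highest in endothelial cells (83.9 ± 9.19), Zbp1 in T cells (86.0 ± 24.3), Ifi204 in monocytes (246 ± 41.7 CPM, against 2.50 in endothelial cells), and Dhx58 and Ifi211 in border-associated macrophages.

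The IFIT proteins, which bind viral RNA and block its translation, lie side by side on chromosome 19 (34527932 to 34632174, GRCm39) but were not highest in the same class. Ifit1 was highest in endothelial cells (112 ± 32.9 CPM), Ifit2 in microglia (73.0 ± 21.4), and Ifit3 (138 ± 48.9) and Ifit3b (72.5 ± 20.7) in astrocytes. The leading class lay above the next in 8 of 8 mice for Ifit3b, 7 for Ifit1, 6 for Ifit3 and 5 for Ifit2. In astrocytes Ifit3 stood at 181, 83.4, 84.3 and 181 CPM in the saline mice and at 186, 184, 96.0 and 107 in the ancrod mice. The level thus split into a high and a low pair within both groups, which overlapped. The OAS family holds enzymes that make a messenger which starts RNA decay: Oasl2 (133 ± 63.0) and Oas3 were highest in neutrophils, Oas1a (40.3 ± 6.87) in monocytes, and Oas2 and Oasl1 in border-associated macrophages. Of the Mx GTPases, which trap viral particles, Mx1 was highest in T cells and Mx2 in endothelial cells. For the OAS and Mx members the leading class lay above the next in 4 of 8 mice (Oasl2) to 7 of 8 (Oas1a).

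The guanylate-binding proteins, GTPases that attack membranes around pathogens and answer to interferon gamma in particular, shared 1 pattern. Gbp2 (92.0 ± 15.4 CPM), Gbp3 (106 ± 18.5), Gbp5 (82.4 ± 23.1) and Gbp7 (152 ± 20.3) were all highest in endothelial cells, Gbp3 and Gbp7 above the next class in 8 of 8 mice and the other 2 in 7 of 8. Their relatives of the immunity-related GTPases were not, since Igtp was highest in T cells (63.8 ± 19.2) and Irgm1 in astrocytes (99.3 ± 33.3), each above the next class in 8 of 8 mice. Rsad2, which encodes the antiviral enzyme viperin, was highest in endothelial cells at 122, 58.0, 76.3 and 122 CPM in saline and 98.6, 109, 93.7 and 86.3 CPM in ancrod mice. All 4 ancrod values lay within the range of the saline values. For Rsad2, endothelial cells lay above border-associated macrophages, the next class, in 5 of 8 mice. Its neighbour Cmpk2, a nucleotide kinase, was also highest there (37.2 ± 8.40). Isg15, a ubiquitin-like modifier, gave its highest mean in T cells (223 ± 75.1 CPM, above endothelial cells in 5 of 8 mice). There it stood at 345, 126, 165 and 193 CPM in saline and 206, 264, 179 and 306 CPM in ancrod mice. Its E3 ligase Herc6 was also highest in T cells (138 ± 42.1, above astrocytes in 8 of 8 mice). Among the other effectors, Slfn5 stood at 426 ± 43.7 CPM in endothelial cells and 2.54 in astrocytes, Ifi44 at 73.8 ± 13.9 in endothelial cells and 0.231 in smooth muscle cells, and Trim30a was highest in microglia (208 ± 38.4), while Ifi27l2a reached 1079 ± 238 CPM in border-associated macrophages.

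Levels also varied between clusters of 1 class. Among endothelial cells, a cluster led by Ly6c1, Cxcl12 and Ly6a held 1456 ± 366 CPM of the 16 members, against 641 ± 216 in a cluster led by the venular genes Ackr1 and Selp, with the former above the latter in 8 of 8 mice. In microglia the values ran from 764 ± 209 CPM in a cluster led by Crybb1 to 278 ± 136 in dividing cells led by Mki67 and Top2a, again in 8 of 8 mice. Infiltrating macrophages led by Gpnmb held 343 ± 87.6 CPM and those led by Cd36 and including Arg1 176 ± 95.1, in 7 of 8 mice. These pairs were picked as the highest and lowest clusters and are descriptions without a test. The clusters also differed in depth, given here as median UMIs relative to the median droplet of the same mouse. It was 0.393 in the cluster led by Ly6c1 and 2.35 in that led by Ackr1. In microglia it was 1.03 for Crybb1 and 2.57 for dividing cells, and in infiltrating macrophages 1.865 for Gpnmb and 1.465 for Cd36. CPM are shares of the UMIs, so these values do not rank the clusters by molecules per cell. The share of a class that a cluster held varied between mice. The microglia led by Crybb1 were 8.95 to 24.3% of the microglia of a saline mouse and 13.9 to 25.8% of those of an ancrod mouse, and those led by Tnf and Il1a (734 ± 255 CPM) 7.81 to 16.3% and 14.4 to 22.4%, both with overlap. Those led by P3h2 and Csmd3 (324 ± 191 CPM) were 9.60 to 16.4% and 1.85 to 7.06%, without overlap. The endothelial cluster led by Ly6c1 was 21.8 to 33.4% and 11.2 to 23.9%, with overlap, and the one led by Ackr1 11.0 to 20.8% and 24.2 to 37.8%, without. The astrocytes led by Gpc5 (686 ± 229 CPM) were 29.7 to 64.9% and 18.8 to 46.8% and those led by Gfap (818 ± 362 CPM) 19.0 to 33.6% and 31.6 to 43.5%, both with overlap. The part of these shares in the comparison of ancrod with saline mice was not tested.

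In single cells the number of the 16 members detected varied within a class, and how many cells held several of them depended on depth. After each cell was thinned to 2000 UMIs, 1421 of 16289 microglia (8.72%) held a UMI for at least 3 of the 16 members, 10430 (64.0%) held none, and the 1421 cells carried 69.1% of the class's UMIs for these genes. By mouse the share was 10.2, 5.96, 4.55 and 11.6% in saline and 11.7, 11.9, 8.14 and 6.59% in ancrod mice, so that the groups overlapped. Without thinning, the mean share over mice was 40.2% in microglia, 75.2% in endothelial cells, 58.9% in fibroblasts and 50.3% in border-associated macrophages. The thinned share was 22.4% in endothelial cells (1382 of 6176), 12.5% in T cells, 11.0% in astrocytes and 9.68% in border-associated macrophages. It was 4.62% in infiltrating macrophages, 2.91% in fibroblasts, 0.939% in smooth muscle cells and 0.476% in neurons (2 of 420). A background of this count was not measured. The thinned cells with at least 3 of the 16 carried 78.4% of the UMIs for these genes in T cells and 65.9% in endothelial cells, but 35.3% in fibroblasts, 14.1% in smooth muscle cells and 10% in neurons. These cells were picked by their UMIs for the 16 members, so the share of such UMIs they carry also depends on the class mean. The share expected from the mean alone was not computed. A cut at 3 genes divides a range, and 1056 microglia held exactly 2 of the 16. Median UMIs per cell before thinning ranged from 4855 in neutrophils to 42058 in fibroblasts.

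The members differed in how often they were detected beside the others in microglia. Each gene was looked for in cells with at least 3 of the 16 members and in cells with none, the gene itself not being counted. Ifit3 was found in 55.5% of the former and 2.43% of the latter, a ratio of 22.8, and the ratio was 24.6 for Rsad2, 47.0 for Ifit1 and 62.3 for Ifit3b. Over the 16 members the ratio ran from 7.64 to 62.3 with a median of 21.8, and over the other 25 from 1.17 to 25.4 with a median of 5.83. Irf1 was at the lower end, found in 29.2 and 24.9%, and Ifi27l2a (61.7 and 36.2%), Bst2 (72.8 and 38.1%) and Ifitm3 (67.6 and 24.1%) were common in cells with none of the 16. Among the 25, the sensor Ifi211 had the highest ratio. The cells were sorted by the 16 members themselves, a set chosen after the data were seen. A ratio of percents is also bounded for genes that are common in cells with none of the 16. The medians of the 2 sets therefore do not compare how tightly the sets go together. Cells of 1 mouse share a library, so these ratios are descriptions.

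**Figure D3:**
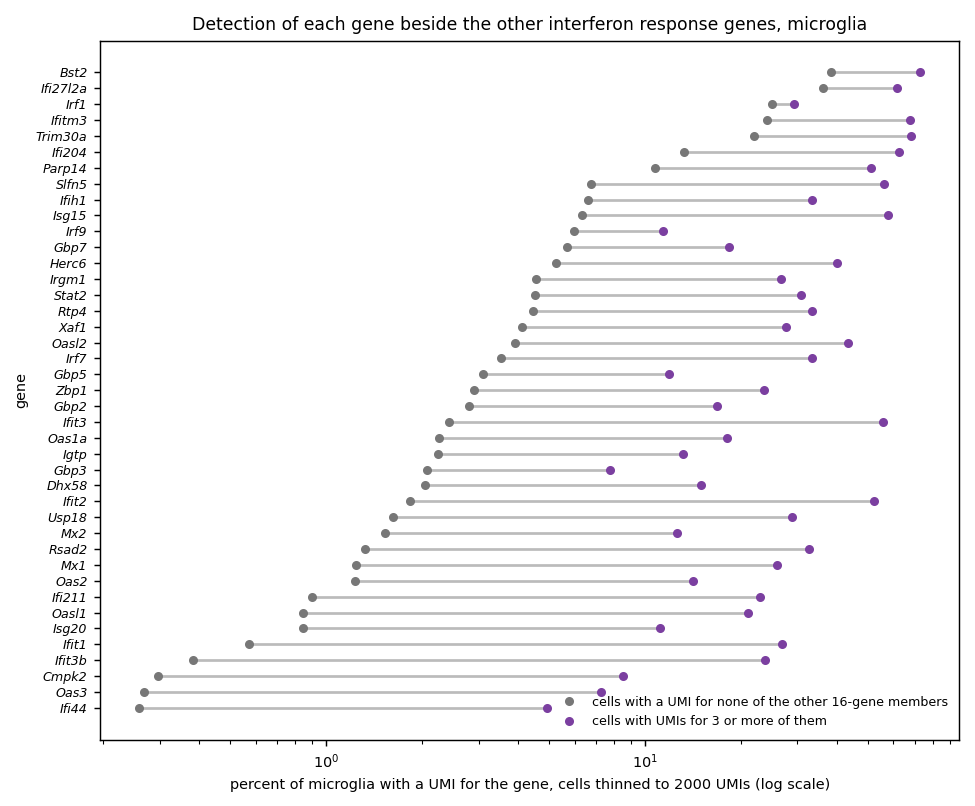
Percent of microglia with a UMI for each gene (x axis, log scale, cells thinned to 2000 UMIs) among cells with at least 3 of the 16 members and among cells with none, the gene itself not counted. The points lie far apart for Ifit3 (55.5 and 2.43%) and nearly together for Irf1 (29.2 and 24.9%).

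Transcripts of the ligands came from few cells. Ifnb1, which encodes interferon beta, was found as 643 UMIs in microglia, 94.8% of those in all cells, and these came from 130 of 16289 microglia (0.798%), 10 to 33 in each mouse, with up to 90 UMIs in a single cell. Its share was 0.476% in neurons (2 of 420), 0.226% in monocytes (2 of 886), 0.225% in border-associated macrophages (2 of 888), 0.0648% in endothelial cells (4 of 6176) and 0.0434% in fibroblasts (1 of 2302), the median cell holding 42058 UMIs in fibroblasts and 15672 in microglia. Of the Ifnb1 UMIs in microglia, 287 and 204 lay in 2 of the 9 clusters, both with Tnf and Il1a among their leading genes. Microglia with at least 3 of the 16 members held Ifnb1 in 51 of 1421 cells (3.59%) and those with none in 45 of 10430 (0.431%). The cells were sorted by the members after thinning, but Ifnb1 was looked for without thinning. The part of depth, mouse and cluster in these 2 shares was not tested. Ifng, which encodes interferon gamma, was found in 156 of 489 T cells (31.9%) and 88 of 252 natural killer cells (34.9%), which together with their depth of 8975 and 7988.5 UMIs compare with 0.0123% of microglia.

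Receptor transcripts had other distributions, and none of 40 further genes of the pathway, from ligands to negative regulators, passed the test of ancrod against saline described next in any class. Ifnar1 stood at 211 ± 32.2 CPM in endothelial cells and 79.8 ± 7.70 in microglia (n = 8), and Ifnar2 at 162 ± 16 and 172 ± 5.62. Ifngr1 was at 1031 ± 197 CPM in natural killer cells, 769 ± 89.1 in T cells and 72.1 ± 5.09 in endothelial cells, while Ifngr2 ran from 10.9 ± 12.7 in natural killer cells to 243 ± 15 in microglia. In microglia 29 of the 40 could be tested, 16 with a higher and 13 with a lower mean in ancrod mice and 0 with an unadjusted p under 0.05, beside 4.13% of all genes. In fibroblasts 28 could be tested, 10 higher and 18 lower, 3 of them with an unadjusted p under 0.05, beside 13.9% of all genes. An unadjusted p under 0.05 was also reached by 4 of 22 in pericytes (15 higher, beside 8.74%), 4 of 25 in dendritic cells (beside 6.59%), 3 of 15 in neurons (beside 2.06%), 7 of 31 in all kept droplets (28 lower, beside 19.9%) and 0 to 2 in each of the other classes.

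The effect of fibrinogen depletion on these genes was asked by comparing ancrod with saline mice, with UMIs summed per mouse and class. A fold change is the log2 of ancrod over saline, fitted by edgeR. Members, pathway genes and all genes tested are counted as higher or lower in the mean by the sign of this fitted value. The printed CPM, which are not scaled by that fit, were not used for these counts. Adjusted p-values are those of the quasi-likelihood F test of edgeR, corrected by the method of Benjamini and Hochberg over all genes tested in the class. The SE given is the size of the fold change divided by the square root of the F of that test. By this test 0 of the 41 members were called at 0.05 in each of the 14 classes and in the sum of all kept droplets. Among all genes it called 0.00779% in fibroblasts (1 of 12834), 0.0123% in all kept droplets (2 of 16275) and 0% in the other classes. DESeq2 called 3 members in fibroblasts, where it called 1.21% of all genes, and 0 in the other classes and in all kept droplets. Of all genes DESeq2 called 8.09% in all kept droplets, 0.424% in pericytes, 0.158% in border-associated macrophages, 0.0844% in dendritic cells, 0.0802% in endothelial cells, 0.0499% in monocytes, 0.0282% in T cells, 0.0216% in neurons, 0.0175% in infiltrating macrophages, 0.0153% in microglia and 0% in the rest. Among classes with at least 30 members tested, the median log2 fold change lay furthest from 0 in fibroblasts (-0.53) and pericytes (0.34). Without 1 mouse the fibroblast median ran from -0.64 to -0.35 and the pericyte median from 0.18 to 0.50. That of astrocytes, 0.25 with all 8 mice, ran from -0.02 to 0.41. The difference between fibroblasts and pericytes was not tested.

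**Figure D4:**
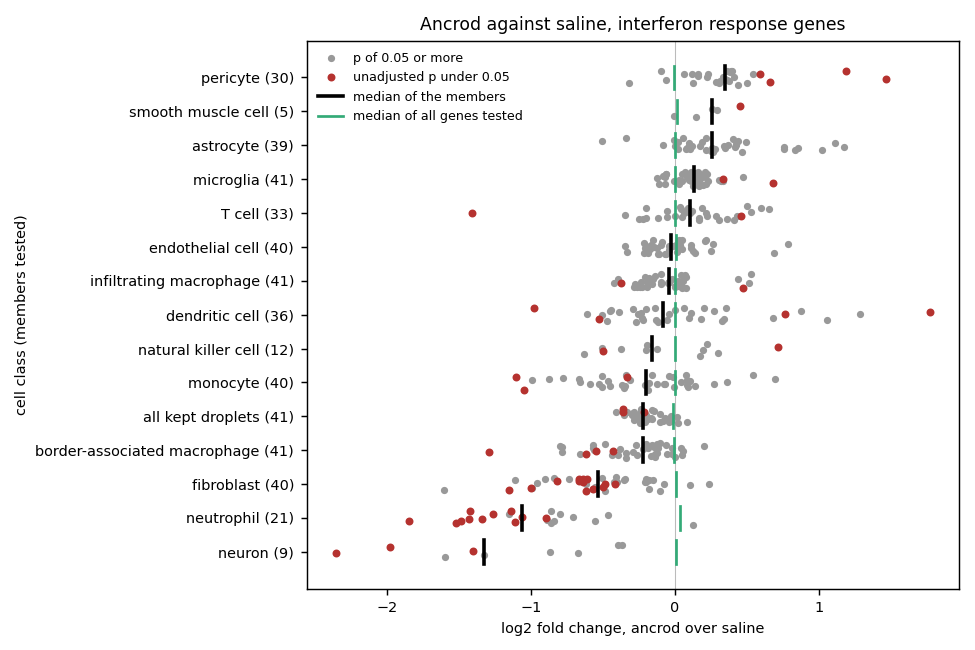
Log2 fold change, ancrod over saline, of every member tested (points) in each cell class and in all kept droplets (rows, number tested in brackets), with the median of the members and of all genes, and with red points for an unadjusted p under 0.05. Medians of the members run from -1.33 in neurons (9 tested) to 0.34 in pericytes, while those of all genes stay close to 0.

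In fibroblasts 38 of 40 tested members had a lower mean in ancrod mice and 2 a higher one, against 50.9% of all genes with a higher mean and a median of all genes close to 0. An unadjusted p under 0.05 was reached by 13 members, all with a lower mean, beside 13.9% of all genes, and the 2 groups of mice did not overlap for 4 members, beside 7.12% of all genes. Isg15 stood at 159, 138, 108 and 173 CPM in fibroblasts of the saline mice and at 108, 104, 83.4 and 75.2 in those of the ancrod mice. Saline 3 and ancrod 1 almost touched, so the groups were parted by a narrow gap. Its fold change was -0.64 (SE 0.15, adjusted p = 0.255 in edgeR and 0.0177 in DESeq2).

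Gbp3 gave 26.2, 22.4, 17.5 and 26.9 CPM in saline and 15.5, 16.1, 16.9 and 11.2 CPM in ancrod mice, a fold change of -0.66 (SE 0.15, adjusted p = 0.255 in edgeR and 0.0249 in DESeq2). Zbp1, a sensor of Z-form nucleic acids that can start cell death, gave 34.3, 41.1, 33.3 and 46.9 CPM in saline and 27.2, 30.01, 26.2 and 18.7 CPM in ancrod mice, with -0.62 (SE 0.15, adjusted p = 0.255 in edgeR and 0.0412 in DESeq2). In both genes every ancrod mouse lay below every saline mouse, and ancrod 4 was lowest. Oas2, named because it was the fourth member without overlap, had low levels of 4.40 to 6.43 CPM in saline and 2.59 to 4.14 in ancrod mice.

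A further pair of members reached low unadjusted p-values in fibroblasts with overlapping groups. Oas1a gave 6.61, 8.37, 2.82 and 8.31 CPM in saline and 4.82, 2.84, 3.4 and 2.63 CPM in ancrod mice, with a fold change of -0.999 (SE 0.29, edgeR adjusted p = 0.263). Parp14, an ADP-ribosyltransferase, gave 39.4, 20.7, 38.3 and 30.2 CPM in saline and 21.3, 21.8, 23.1 and 14.4 CPM in ancrod mice, with -0.64 (SE 0.20, edgeR adjusted p = 0.268). The overlap came from saline 3 for Oas1a and from saline 2 for Parp14. By role the median fold change was negative throughout, from -1.17 for viperin and Cmpk2, -0.84 for Mx, -0.69 for IFIT, -0.64 for the ISG15 system and -0.62 for OAS to -0.28 for the GTPases and -0.18 for the transcription factors. Irf1 was 1 of the 2 members with a positive value (0.24, SE 0.21).

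**Figure D5:**
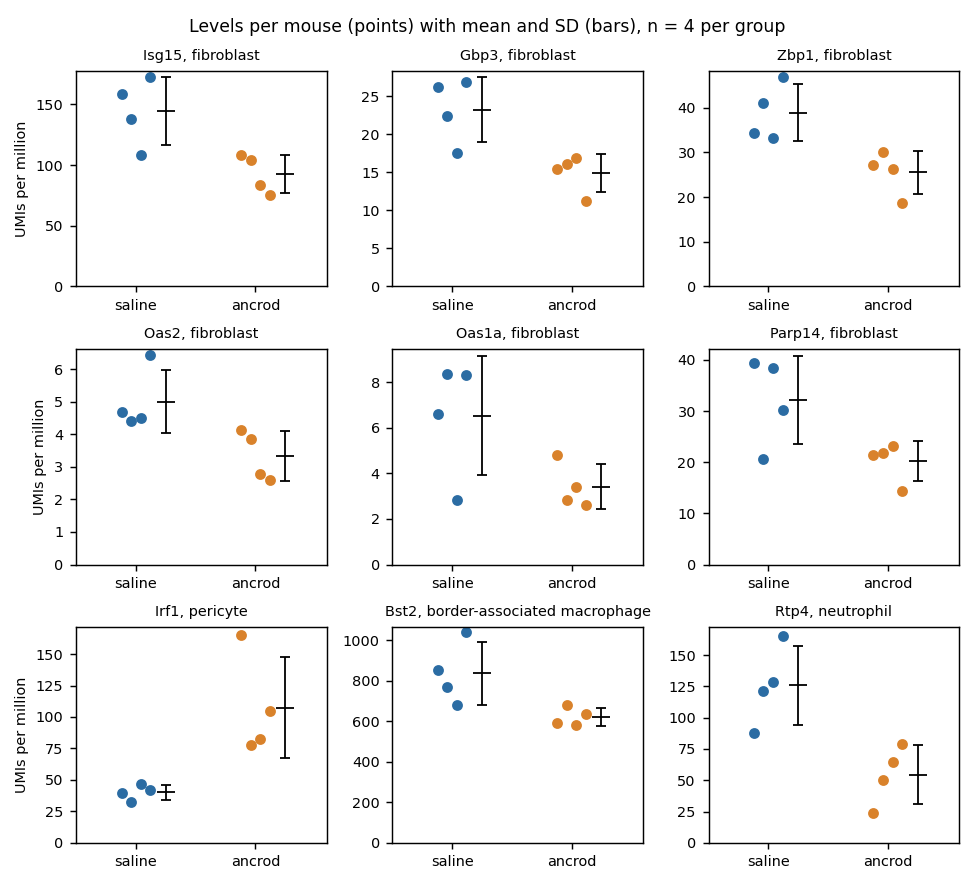
Levels per mouse in CPM of the class for 9 pairs of gene and cell class, saline and ancrod, with points for mice and bars for the mean and SD, n = 4 per group. The groups overlap for Oas1a and Parp14 in fibroblasts and not in the other 7 panels, where ancrod is lower except for Irf1 in pericytes.

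Other measures differed between mice in fibroblasts, and their part in these values was not tested. Saline 3 held 35 fibroblasts against 115 to 634 in the other mice. The 7 monocyte markers summed to 62.4 to 108 CPM in saline and 36.8 to 59.3 in ancrod mice, without overlap. Of these 7, 3 had a higher mean CPM in ancrod mice and 0 were at 0. The 8 fibroblast markers summed to 26466 to 35998 CPM in saline and 22651 to 27273 in ancrod mice, with overlap. A cluster led by Penk and Ccn3 held 5951 CPM of the 16 members in saline 1, from 13 cells, against 439 to 1147 CPM in the 5 other mice with at least 10 cells of it. The median over the members was -0.35 without saline 1, -0.40 in batch 1 alone and -0.46 with the UMIs thinned to equal totals. Fitted alone, the 3 clusters with enough cells gave -0.29 (led by Cemip and Lama1), -0.54 (led by Col1a1 and Col12a1) and -0.55 (led by Mmp3 and genes of dividing cells), with 0 members called in each.

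Pericytes showed values on the other side of 0. Of 30 tested members 27 had a higher mean in ancrod mice, with a median fold change of 0.34 against a value close to 0 for all genes, and 4 members had an unadjusted p under 0.05, beside 8.74% of all genes. The median was 0.18 without saline 3, 0.22 without ancrod 1 and 0.59 in batch 1 alone. Irf1 stood at 39.8, 32.1, 46.8 and 41.9 CPM in saline and at 165, 77.5, 82.7 and 104 CPM in ancrod mice. Every ancrod mouse lay above every saline mouse, ancrod 1 furthest. Irf1 was the 1 member whose groups did not overlap in pericytes, beside 4.89% of all genes in either direction and 1.61% with every ancrod mouse higher. Its fold change of 1.46 (SE 0.23) had an edgeR adjusted p of 0.0583, the lowest of any member in any class, and over 19 settings, this one included, the edgeR adjusted p was under 0.05 in 7 and ran from 0.000224 without a filter on low counts to 0.240 without saline 2. It was 0.0445 in batch 1 alone and 0.0394 and 0.0275 without ancrod 1 and ancrod 4, but 0.165, 0.130 and 0.136 without saline 1, 3 and 4. Of all genes in pericytes, the 7 settings called 0.0105% without ancrod 1, 0.222% without ancrod 4, 0.196% in batch 1 alone, 0.0653% with batch as a covariate, 0.316% with the replicate block, 0.609% with doublets kept and 0.429% without a filter on low counts. DESeq2 gave no adjusted p for it.

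The other 3 members had overlapping groups in pericytes. Rsad2 gave 21.1, 12.3, 4.26 and 9.32 CPM in saline and 55.0, 24.8, 8.70 and 17.7 CPM in ancrod mice (fold change 1.18, SE 0.48, edgeR adjusted p = 0.489), and the fold change was 0.57 without ancrod 1. Ifi204 gave 48.9, 33.0, 23.4 and 63.4 against 66.4, 76.8, 53.3 and 45.6 CPM (0.59, SE 0.24, edgeR adjusted p = 0.496). Ifit3b gave 32.3, 26.4, 7.45 and 23.3 against 38.4, 38.7, 25 and 38.3 CPM (0.66, SE 0.29, edgeR adjusted p = 0.537). Saline 3 was lowest for all 3 genes. The pericyte markers summed to 27746 to 32706 CPM in saline and 27579 to 31481 in ancrod mice, whereas the 8 fibroblast markers in pericytes summed to 703 to 935 and 1072 to 1661 CPM without overlap, and the part of this in the values above was not tested. The mean of Irf1 in fibroblasts was 201 ± 45.6 CPM in saline and 233 ± 58.0 in ancrod mice.

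Microglia, which held most of the Ifnb1 transcripts, gave values close to 0. Of 41 members 33 had a higher and 8 a lower mean in ancrod mice, the median fold change was 0.13, an unadjusted p under 0.05 was reached by 2, beside 4.13% of all genes, and 0 were without overlap, beside 2.15%. Ifih1, a sensor of double-stranded RNA, gave 61.6, 60.1, 49.5 and 73.1 CPM in saline and 78.9, 89.4, 67.4 and 62.6 CPM in ancrod mice (0.33, SE 0.13, edgeR adjusted p = 0.948). Ifi44 gave 4.67, 2.74, 2.09 and 6.23 against 7.1, 7.44, 5.19 and 4.31 CPM (0.68, SE 0.30, edgeR adjusted p = 0.948). The overlap came from saline 4 for Ifih1 and from saline 4 and ancrod 4 for Ifi44.

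Isg15 in microglia gave 105, 106, 65.6 and 135 CPM in saline and 130, 123, 88.7 and 104 CPM in ancrod mice (0.16, SE 0.19). Ifit3 gave 84.2, 72.0, 37.4 and 103 against 108, 92.4, 73.2 and 56.9 CPM (0.21, SE 0.27). Saline 3 was lowest for both. Irf7 gave 48.7, 43.4, 26.4 and 67.5 against 60.1, 62.2, 42.5 and 38.0 CPM (0.18, SE 0.24). Rsad2 gave 50.8, 42.4, 23.8 and 64.1 against 60.1, 46.4, 39.8 and 41.7 CPM (0.11, SE 0.24). In all 4 genes saline 3 was lowest, saline 4 was highest or next to highest, and the span of the saline mice exceeded the distance between the group means. Oasl2 ran from 26.2 (saline 3) to 83.9 CPM (saline 4), Stat2 from 26.6 to 74.7, Gbp2 from 20.2 to 44.8 and Igtp from 12.3 to 27.5, with the same 2 mice at the ends. Bst2 (297 to 504 CPM), Ifitm3 (189 to 364) and Ifi27l2a (323 to 589) also ran from saline 3 to saline 4, whereas Irf1 was the steadiest of these genes, between 136 and 197 CPM, with a fold change of -0.07 (SE 0.10). The median over the members was 0.38 in batch 1 alone and -0.01 without saline 3.

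The 2 mice at the ends of those ranges stood apart in other classes too. Saline 4 lay above the mean of the 8 mice for 41 of 41 members in all kept droplets, 41 of 41 in microglia, 40 of 41 in border-associated macrophages, 40 of 40 in monocytes and 38 of 40 in endothelial cells. Saline 3 lay above the mean for 1 of 41 in all kept droplets, 1 of 41 in microglia and 0 of 41 in infiltrating macrophages. In astrocytes, ancrod 1 was above the mean for 39 of 39 members and ancrod 4 for 0 of 39. This did not hold in every class, as saline 3 lay above the mean for 20 of 21 members in neutrophils and 21 of 40 in fibroblasts, and saline 4 for 13 of 33 in T cells and 0 of 5 in smooth muscle cells. Where most members of a mouse lay on the same side, counts of members on 1 side are not separate observations.

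The medians of border-associated macrophages and monocytes turned their sign without saline 4. In border-associated macrophages 37 of 41 members had a lower mean in ancrod mice (median -0.23, 4 with an unadjusted p under 0.05, beside 7.22% of all genes). The median was 0.02 without saline 4 and reached -0.42 without another mouse. Bst2 gave 851, 770, 681 and 1041 CPM in saline and 593, 678, 581 and 636 CPM in ancrod mice, without overlap (1 member, beside 4.20% of all genes), with a fold change of -0.43 (SE 0.13, edgeR adjusted p = 0.438). Oas1a (20.8 to 54.3 against 17.2 to 27.0 CPM), Irgm1 (30.1 to 75.0 against 31.4 to 41.3) and Gbp5 (4.73 to 55.2 against 4.18 to 13.7) overlapped, with adjusted p-values of 0.681 to 0.688 in edgeR.

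In monocytes 29 of 40 members had a lower mean in ancrod mice (median -0.20, 3 with an unadjusted p under 0.05, beside 4.43% of all genes, and 0 without overlap, beside 3.13%), and the median was 0.13 without saline 4 and 0.05 in batch 1 alone. Irf7 gave 48.8, 77.9, 42.2 and 222 CPM in saline and 44.9, 45.1, 41.9 and 71.0 CPM in ancrod mice (-1.10, SE 0.46, edgeR adjusted p = 1.00), and Igtp 11.5, 14.3, 12 and 31.1 against 13.4, 5.76, 4.26 and 5.76 CPM (-1.05, SE 0.42, edgeR adjusted p = 1.00). The value of saline 4 was far above the rest in both. Without 1 mouse the fold change ran from -1.42 to -0.25 for Irf7 and from -1.80 to -0.57 for Igtp. Ifi204 was steadier, at 273, 297, 228 and 293 against 270, 214, 190 and 205 CPM (-0.33, SE 0.14, edgeR adjusted p = 1.00). In dendritic cells 15 of 36 members had a higher mean, and the median was -0.09, with -0.29 to 0.21 without 1 mouse. There 4 members had an unadjusted p under 0.05, beside 6.59% of all genes. These were Oasl1 (0 to 11.7 against 7.27 to 31.8 CPM), Ifi211 (16 to 42.8 against 36.4 to 76.3), Bst2 (219 to 428 against 165 to 231) and Rtp4 (11.0 to 55.0 against 7.27 to 18.2). All 4 overlapped (0 members were without overlap, beside 3.53% of all genes), with edgeR adjusted p-values of 0.662 to 0.711.

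Neutrophils had the lowest median among classes with more than 10 members tested, -1.06 with 20 of 21 members lower in the mean, 11 with an unadjusted p under 0.05, beside 3.16% of all genes. Rtp4, a transmembrane protein that blocks copying of some RNA viruses, gave 88.0, 122, 129 and 165 CPM in saline and 23.6, 50.4, 64.5 and 79.3 CPM in ancrod mice, without overlap (1 member, beside 1.82% of all genes), with -1.52 (SE 0.35, edgeR adjusted p = 1.00). Its adjusted p in edgeR was 0.00355 without a filter on low counts, where Rtp4, Ifi211, Gbp2 and Slfn5 were called, beside 0.561% of all genes, and 0.624 to 1.00 over the other settings. Oasl2 gave 110, 156, 171 and 242 against 52.0, 95.7, 67.3 and 167 CPM, and Ifi27l2a gave 484, 139, 268 and 337 against 146, 151, 109 and 151 CPM, both with overlap. Ifit3 gave 0, 45.2, 40.3 and 76.4 against 9.68, 13.4, 16.8 and 31.7 CPM. Irf7 gave 22, 83.4, 52.3 and 79.5 against 33.9, 24.3, 33.6 and 7.93 CPM, and Isg20, an RNA exonuclease, gave 22, 79.9, 38.2 and 50.9 against 18.2, 27.7, 25.2 and 31.7 CPM. Saline 1, with 12 neutrophils, was the lowest or highest saline mouse for each of these 6 genes, and ancrod 4 held 27. With mice of fewer than 30 cells left out the median was -1.26, and with UMIs thinned to equal totals it was -0.41. The summed neutrophil markers ranged from 46753 to 176140 CPM in saline and 68893 to 133380 in ancrod mice.

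Endothelial cells, where 16 of the 41 members had their highest mean, had 19 members with a higher and 21 with a lower mean (median -0.03), 0 with an unadjusted p under 0.05, beside 7.66% of all genes, and 0 without overlap, beside 3.65%. Gbp2 there gave 93.9, 85.9, 77.5 and 116 CPM in saline and 90.3, 94.9, 108 and 69.0 CPM in ancrod mice, and the pair of batch 2 held both ends of its range. Stat2 gave 75.4, 65.7, 69.6 and 70.4 against 66.4, 72.3, 58.7 and 62.3 CPM, with the ancrod values reaching lower. Median UMIs per endothelial cell were 7351 to 9846 in saline and 11706 to 17176 in ancrod mice, without overlap. The part of this depth in the values above was not tested.

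Astrocytes had 34 of 39 members with a higher mean (median 0.25) and 0 with an unadjusted p under 0.05, beside 3.39% of all genes. Without ancrod 1 it was 19 of 39 with a median of -0.02, and in batch 1 alone the median was 0.55. Infiltrating macrophages had 16 of 41 with a higher mean (median -0.05) and 2 with an unadjusted p under 0.05, beside 2.61%, Gbp7 (6.84 to 10.8 against 10.2 to 15.5 CPM) and Ifitm3 (222 to 380 against 193 to 282). T cells had 23 of 33 with a higher mean (median 0.10) and 2 with an unadjusted p under 0.05, beside 3.49%: Ifi27l2a (462 to 910 against 732 to 1043 CPM) and Ifitm3 (58.6 to 145 against 13.6 to 81.8). In T cells 0 members were without overlap, beside 2.55% of all genes. Natural killer cells had 12 members tested (median -0.16), 2 with an unadjusted p under 0.05, beside 4.73%, Irf1 at 184 to 200 against 86.5 to 185 CPM and Parp14 at 44.4 to 79.4 against 60.8 to 141. Smooth muscle cells had 5 tested (median 0.26), 1 with an unadjusted p under 0.05, beside 5.28%, Bst2 at 91.0 to 127 against 109 to 196 CPM. In neurons saline 3 held 8 cells and was left out, and the 9 tested members had a median of -1.33, with -0.64 without saline 4 (11 tested) and -0.72 in batch 1 alone. An unadjusted p under 0.05 was reached by 3, beside 2.06% of all genes. Ifi27l2a was at 26.0, 20.0 and 87.1 against 7.02, 20.4, 10.9 and 2.93 CPM, Trim30a at 5.21, 13.9 and 31.3 against 3.01, 11.0, 3.13 and 3.74 CPM, and Rtp4 at 26.0, 13.9 and 39.5 against 7.02, 17, 11.7 and 7.20 CPM, with overlap in each.

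In the sum of all kept droplets 38 of 41 members had a lower mean in ancrod mice, with a median of -0.22, 3 with an unadjusted p under 0.05, beside 19.9% of all genes, and 0 without overlap, beside 10.7%. The 3 were Gbp7 (52.6 to 74.1 against 43.0 to 55.5 CPM, -0.36, SE 0.12, edgeR adjusted p = 0.186), Irf9 (38.8 to 48.7 against 33.7 to 43.6, -0.21) and Gbp3 (30.7 to 47.1 against 26.7 to 39.2, -0.36). In such a sum fewer cells of a type and less RNA per cell cannot be told apart, and endothelial cells, which had the highest means of all 3 genes, numbered 912 to 1138 in saline and 357 to 710 in ancrod mice. The median was 0.02 in batch 1 alone and -0.04 without saline 4.

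Whether the effect differed between classes was tested directly for 2 pairs, with the mouse as a term. Between microglia and infiltrating macrophages 0 of 41 members differed (edgeR, lowest adjusted p 0.927, 0% of all genes called), and limma gave 0 as well. An unadjusted p under 0.05 was reached by 13 members, beside 4.92% of all genes. All 13 had a lower fold change in infiltrating macrophages than in microglia. Among them were Irf7 (difference -0.62, SE 0.16), Ifitm3 (-0.51, SE 0.14), Ifi27l2a (-0.48, SE 0.13) and Rtp4 (-0.47, SE 0.12). The median difference was -0.21 over the members and 0.01 over all genes. Without ancrod 1 it was -0.11 over the members and without ancrod 4 it was -0.32, and 9 to 18 members had an unadjusted p under 0.05 without 1 mouse. Between microglia and endothelial cells 0 of 40 differed (edgeR, lowest adjusted p 0.690, 0% of all genes called), limma giving 0 members and 1 of 11684 genes. There were 8 at an unadjusted p under 0.05, beside 6.59% of all genes, and 4 to 12 without 1 mouse. Of the 8, 7 had a lower fold change in endothelial cells than in microglia, such as Parp14 (difference -0.41, SE 0.09). The fold change of Ifi211 was higher in endothelial cells (difference 0.72, SE 0.26), but its mean level there was only 0.972 CPM. These are differences of fold changes and not of levels.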

How the data were processed

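Single cells of 8 mice were sequenced from droplets with molecular barcodes. The authors deposited whole-number UMI counts per gene and droplet, without normalization and with empty droplets included. Per the submitters' processing notes these were made with Cell Ranger 7.1.0 and STAR on GRCm39. Droplets with at least 2000 UMIs and under 20% mitochondrial UMIs were kept. Doublets were scored by a procedure like Scrublet, and the highest scores were removed at 0.8% per 1000 droplets of a library. Droplets with at most 100 UMIs gave the profile of free RNA.

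Counts were scaled per cell and log transformed. Mitochondrial genes and 164 interferon-related genes were set aside, and of the rest the 3000 with the highest variability gave 30 principal components, 20 neighbours and 58 Leiden clusters (leidenalg 0.10.2, resolution 2). A cluster took the class with the highest mean of scaled markers. It stayed unnamed with fewer than 3 detected markers, with more markers of another class among its 10 leading genes, with few UMIs and no own marker leading, or with over 30% doublets, limits set after the clusters were seen. Markers of the tested classes were present in their clusters.

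UMIs were summed per mouse and class, a mouse entering with at least 10 cells and a class with at least 3 mice per group, filtered with filterByExpr, scaled by TMM and tested with glmQLFTest (edgeR 4.0.16, R 4.3.3), group only, with Benjamini-Hochberg adjustment over all genes tested at 0.05. The difference between classes was tested as an interaction with the mouse as a term. DESeq2 1.42.0 and limma 3.58.1 served as alternatives. The fit was tested on simulated data. Printed levels are counts per 1000000 UMIs of the class (CPM). The depth leaves genes of a few CPM and classes of few cells with wide errors, and p-values measure the spread between mice.

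1 gene of the pathway list is not reported here by name. The members and lists were chosen with earlier results of these data known. Named with values were members called in a class, otherwise up to 5 with the lowest unadjusted p under 0.05, and 12 members (Isg15, Ifit3, Irf7, Rsad2, Ifitm3, Bst2, Ifi27l2a, Irf1, Stat2, Gbp2, Igtp and Oasl2) in the class with their highest mean and in microglia. The alternatives were another tool, no filter on low counts, the replicate number as a block, batch, depth, stricter droplet limits, other doublet treatment, another resolution, free RNA subtracted and each mouse left out.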

Additional observations from a re-analysis of the deposited data

Results flagged for a closer look

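A sample was singled out when its gap to the nearest mouse of its group of 4, divided by the range of the group, passed the 95% critical value of Dixon's test. This applied to 19 of 210 groups of 4, where chance gives about 1 in 20. The values are given without an explanation, and others means the other 3 mice of the group.

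For the sum of all 41 members, monocytes of saline 4 stood at 8149 CPM (others 4908 to 5078), T cells of ancrod 3 at 2720 CPM (others 3681 to 3705) and neutrophils of ancrod 4 at 2704 CPM (others 1805 to 1850). For the sum of the 16 members, natural killer cells of saline 2 stood at 546 CPM (others 146 to 186) and neutrophils of ancrod 4, which held 27 cells, at 888 CPM (others 282 to 363).

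Among single members in monocytes, Igtp was at 31.1 CPM in saline 4 (others 11.5 to 14.3) and at 13.4 CPM in ancrod 1 (others 4.26 to 5.76), and Irf7 at 71.0 CPM in ancrod 4 (others 41.9 to 45.1). In dendritic cells Bst2 was at 428 CPM in saline 2 (others 219 to 251) and Ifi211 at 16 CPM in saline 3 (others 38.5 to 42.8). Irf1 in microglia of ancrod 4 was at 136 CPM (others 166 to 167), and Ifit3b in pericytes of ancrod 3 at 25 CPM (others 38.3 to 38.7). Ifi27l2a in neutrophils of ancrod 3 was at 109 CPM (others 146 to 151), and Trim30a in neurons of ancrod 2 at 11.0 CPM (others 3.01 to 3.74).

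The share of cells with at least 3 of the 16 members was 12% in natural killer cells of saline 2, 1.96% in neurons of ancrod 2, 2.38% and 3.70% in smooth muscle cells of saline 2 and ancrod 2 (0% in the others of each group), and 11.1% in neutrophils of ancrod 4 (others 4.11 to 5.00%). These shares rest on few cells.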

How the results depend on the processing

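The count of called members stayed at 0 in 154 of 161 fits under other settings and in 133 of 135 fits without 1 mouse. The exceptions were fibroblasts with DESeq2 (3 members), neutrophils without a filter on low counts (4 members, 81 of 14451 genes) and pericytes, where 1 member, Irf1, was called with batch as covariate, in batch 1 alone, with the replicate block, with doublets kept and without a filter on low counts, and 0 to 1 members without 1 mouse. The replicate numbers do not pair the mice: same-numbered mice correlated at -0.64, -0.30, -0.13 and 0.33 in their deviations, and 1 of 4 saline mice correlated best with its own number. Under the replicate block no other class had a called member. Calls over all genes reached 1316 with DESeq2 in all kept droplets (edgeR 2), 155 with DESeq2 in fibroblasts (edgeR 1), and up to 67 in pericytes and 81 in neutrophils over the settings.

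Medians over the members moved by more than the SD between mice of a group of the median level of the members in 6 fits: fibroblasts of the cluster led by Cemip (-0.29), neurons with doublets kept (-0.48) and with UMIs thinned (0.079), smooth muscle cells in batch 1 alone (0.022) and without the filter (-0.044), and T cells, with 0.0010 to 0.48 without 1 mouse (0.48 without saline 1). The median turned its sign in batch 1 alone in all kept droplets, monocytes, dendritic and endothelial cells and infiltrating macrophages, and without 1 mouse in 8 classes. In the order of classes by summed level, the 16 members put monocytes at rank 7, border-associated macrophages at 3, endothelial cells at 1 and microglia at 5. Resolution 1, at which no cluster was named monocyte, put border-associated macrophages at 1, endothelial cells at 2 and microglia at 4. Without 1 mouse border-associated macrophages and endothelial cells took ranks 2 to 3 and microglia 5 to 7. No cause was tested. Classes under about 300 cells and members of a few CPM limit what could be detected.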
